A study of Mus musculus with 48 samples.

Results

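The proteasome genes described here are all probes of the mouse array whose gene name begins with PSMA, PSMB, PSMC, PSMD, PSME, PSMF or PSMG and a number. This rule found 57 of the 24613 probes, under 41 of the 18991 gene names, with no use of any measured value. PSMC3IP shares the letters but encodes a recombination factor and was set apart, which left 56 probes of 40 genes. Differences between siRNAs are given below as PPARγ knock down (KD) minus control siRNA on the log2 scale, so a negative value means that the signal was lower in the KD.

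3T3-L1, a mouse preadipocyte line of fibroblast shape that can be differentiated into adipocytes with hormones, was transfected before differentiation with 50 nM of a pool of siRNAs against PPARγ or of a non-targeting control pool. At confluence on day −2 all cells, whichever siRNA they carried, received dexamethasone and isobutylmethylxanthine, and on day 0 insulin and the PPARγ ligand rosiglitazone. RNA was taken on day −2 and on each of days 0 to 6, with 3 biological replicates of each siRNA and day, so that 48 arrays came from this single cell line. The labels do not say whether the 8 arrays of a siRNA and replicate came from separate transfections, so that p-values measure the spread between these arrays. In whole cultures, fewer cells of a type and less RNA per cell cannot be told apart.

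The proteasome breaks down proteins tagged with ubiquitin. Its 20S core is a barrel of outer α rings and inner β rings, in which β1, β2 and β5 (PSMB6, PSMB7 and PSMB5) cut, and interferon-induced β1i, β5i and β2i (PSMB9, PSMB8 and PSMB10) can replace them to form the immunoproteasome that supplies peptides to MHC class I. The 19S cap, with a base of ATPases (PSMC) and other PSMD subunits and a lid, recognizes and unfolds substrates, and PA28 and PA200 (PSME) are other caps.

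Of the 56 probes, 49 of 37 genes were above background, meaning a detection p under 0.01 on 3 arrays or more, and 39 were so on all 48 arrays. Each was read on 10 to 62 beads per array, with a median of 34. The 7 probes above background on no array were the only probes of PSMA3, PSMA6 and PSMB8 and second probes of PSMA1, PSMD5, PSMD11 and PSME4. PSMB6, PSMD1 and the assembly chaperones PSMG1 to PSMG4 had no probe under these names. Replicate 3 stood apart, with 33.4% to 35.4% of all probes above background against 36.8% to 40.4% in replicates 1 and 2. Of the proteasome probes, 7 (of PSMA5, PSMB2, PSMC4, PSMC6, PSMD11 and both of PSMD6) were read on nearly all arrays of replicates 1 and 2 but on at most 3 of the 16 arrays of replicate 3. Pparg, the target of the siRNA, averaged 11.42 in the controls and 9.08 in the KD, a difference of −2.34 (SE 0.04, limma adjusted p = 9.48e-34), and it was lower in the KD in 24 of 24 pairs (1 array of each siRNA, matched by day and replicate). Of 10 adipocyte marker genes, all 10 were lower in the KD, with a median of −2.165, and of 9 fibroblast markers 4 were higher. The adipocyte markers CEBPA, FABP4, PLIN, RETN and SLC2A4 were above background on no KD array, so that the size of that median is limited by background. Of 7 macrophage markers, 5 were above background on no array, and the summed signal of the 7 lay between 253.7 and 775.3 under control siRNA and between 292.7 and 685.4 in the KD. The other 2, LYZS and CD14, changed by −2.43 and −0.97 from day −2 to day 2 under control siRNA (adjusted p = 5.24e-14 and 0.00409 from limma) and were higher in the KD on day 2 by 1.25 and 1.04 (adjusted p = 1.39e-05 and 0.00101). LYZS was above background on 15 control and 21 KD arrays and CD14 on 16 and 24, so that the sizes of their changes can be limited by background. None of 4 endothelial and none of 4 epithelial markers, and 1 of 4 muscle markers, was above background.

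Under control siRNA the median of the proteasome transcripts crested on day 2, and in the PPARγ KD it stayed near its day −2 level on that day. Over the 37 genes above background, each given by its brightest probe, the median change from day −2 under control siRNA was −0.06, −0.025 and 0.003 in replicates 1, 2 and 3 on day 0. It came to 0.192, 0.216 and 0.223 a day later and reached 0.269, 0.375 and 0.364 on day 2. By day 3 it was back at 0.006, 0.023 and −0.019. The median of all 10567 probes above background moved by between −0.034 and 0.015 on day 2 in the same arrays. In the PPARγ KD the median of the proteasome genes on day 2 was 0.033, 0.011 and 0.003, and on day 6 −0.174, −0.253 and −0.212. The choice of day 2 was made after the values were seen. Marker genes moved on the same days. The median change from day −2 to day 2 was 2.956 under control siRNA and 0.494 in the KD for the 10 adipocyte markers, of which 9 rose under control siRNA, and −1.408 and −0.285 for the 9 fibroblast markers, of which 6 fell. Their part in the day 2 values of the proteasome genes was not tested.

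**Figure D1:**
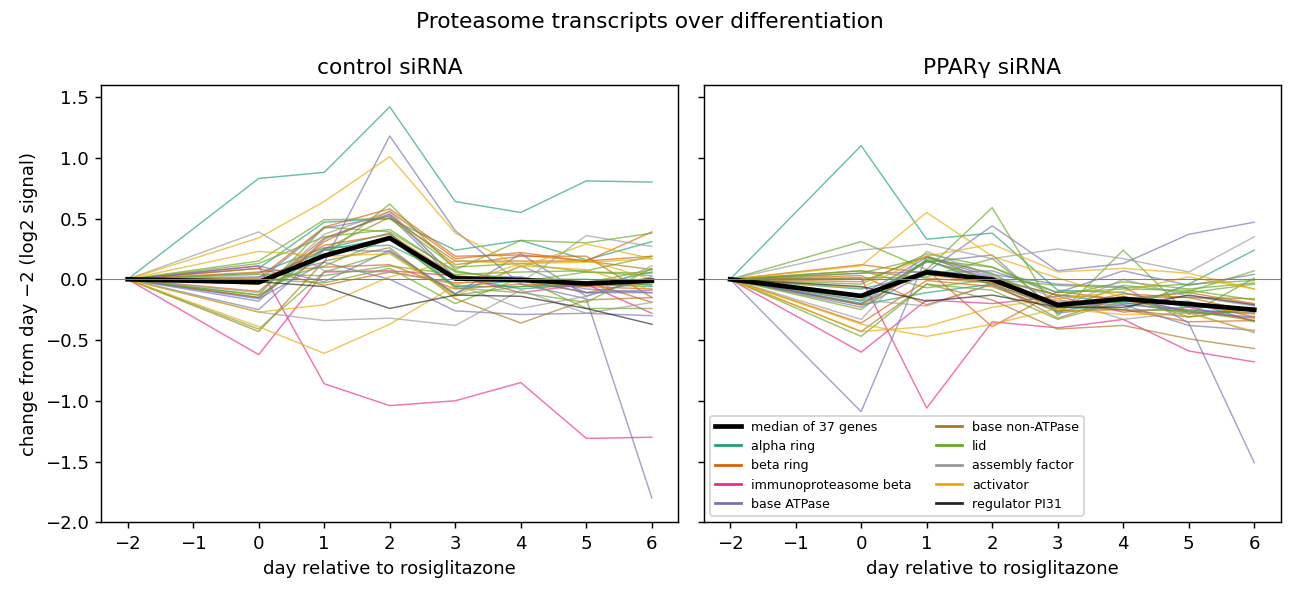
Change of mean log2 signal from day −2 (vertical axis) by day relative to rosiglitazone (horizontal axis) for the 37 proteasome genes above background, with control siRNA on the left and PPARγ siRNA on the right. Each thin line is the mean of 3 replicates of a gene, coloured by its place in the proteasome, and the thick black line is the median, which reaches 0.34 on day 2 under control siRNA and −0.002 in the KD.

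By gene, 32 of 37 were above their day −2 level on day 2 under control siRNA, and 25 of 37 (67.6%) had their highest mean on day 2, against 21.9% of all probes above background. In the KD, 15 genes were highest on day 1 and 5 on day 2 (8.25% of all probes above background were highest on that day). Between day −2 and day 2 under control siRNA, 9 of the 56 probes rose and 0 fell (limma, Bonferroni adjusted p up to 0.05), where 6.93% of all probes rose and 13.9% changed in either direction. Among probes above background the share that rose was 18.4% of the proteasome probes and 15.8% of all probes, and the share that fell 0% and 16.2%. Without replicate 1, 2 or 3 the 9 became 2, 2 and 3, and without the replicate block 2. With Benjamini-Hochberg adjustment 22 rose and 5 fell (15.2% and 14% of all probes), and above background 42.9% and 10.2% of the proteasome probes against 29.6% and 31.2% of all. In the KD, 0 of the 56 probes changed by limma with Bonferroni adjustment between these days (2.77% of all probes did). With Benjamini-Hochberg adjustment 4 did (10.2%), and 14 had an unadjusted p under 0.05, a count given without the share of all probes. Over all 7 later days tested together, 23 probes (41.1%) changed under control siRNA and 8 (14.3%) in the KD, where 23.5% and 16.5% of all probes did. Among probes above background the share was 53.7% of all probes against 46.9% of the proteasome probes under control siRNA. For the KD this share is not given, so 14.3% beside 16.5% does not compare probes of like brightness. Without replicate 1, 2 or 3 the count of 23 was 3, 3 and 11 and that of 8 was 1, 1 and 6, and without the replicate block they were 9 and 2.

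In the α and β rings of the 20S core, every gene above background except PSMB1 and the immunosubunit PSMB9 had its highest mean under control siRNA on day 2. Of 11 core genes above background, the immunosubunits apart, 11 were above their day −2 level on day 2 under control siRNA (median 0.378, range 0.063 to 1.415), and 11 of 11 were lower in the KD than in the control on that day (median −0.31). Of 16 base and lid genes of the 19S cap, 15 were above day −2 (median 0.364), and 12 of 16 were lower in the KD (median −0.2). For all 37 genes the median difference between the siRNAs on day 2 was −0.263, −0.109 and −0.27 in replicates 1, 2 and 3, with 28 of 37 below 0, beside medians over all probes above background of 0.011, 0.066 and −0.003. On day −2 it was 0.021, 0.202 and 0.009. The siRNA effect of day 2 minus that of day −2 was called below 0 for 3 of the 56 probes (PSMA1, PSMB7 and PSME3; 2.63% of all probes) and above 0 for 0 (3.34%) by limma with Bonferroni adjustment. With Benjamini-Hochberg adjustment it was below 0 for 22 probes and above 0 for 0, where 8.95% and 9.73% of all probes were called. At an unadjusted p under 0.05, 28 passed in either direction, a count given without the share of all probes. Among probes above background, 6.12% of the proteasome probes and 6.03% of all were called below 0 with Bonferroni adjustment, and 44.9% and 18.6% with Benjamini-Hochberg adjustment. The test of all 7 later days together called 2 of the 56, PSMA1 and PSME3, where 7.11% of all probes and 16.4% of those above background were called. Without replicate 1, 2 or 3 the day 2 contrast called 0, 0 and 3 probes, and without the replicate block 1. In the joint test PSMA1 passed with each replicate left out in turn (adjusted p up to 0.016) but not without the block, and PSME3 in none of these 4 settings (adjusted p = 1 in each).

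PSMA1, the α6 subunit of the outer ring, moved most among the core genes. Its log2 signal under control siRNA was 11.81, 11.85 and 12.40 on day −2 in replicates 1, 2 and 3. It was 13.29, 13.33 and 13.68 on day 2 and had come down to 12.68, 12.69 and 13.08 by day 6. In the PPARγ KD the 3 values were 12.15, 12.23 and 12.55 at the start and 13.22, 13.30 and 13.73 on day 0, then 12.38, 12.65 and 13.05 by day 2 and 11.79, 11.94 and 12.50 at the end. The KD was high on day 0, when its arrays lay above those of the control of the same replicate, and low from day 1 on, and on day 2 the arrays of the siRNAs did not overlap. PSMA1 rose by 1.42 from day −2 to day 2 under control siRNA, or 2.67-fold (SE 0.090, adjusted p = 1.36e-13 from limma), and was still 0.80 above day −2 on day 6 (adjusted p = 2.77e-06). In the KD it rose 2.15-fold by day 0 (adjusted p = 3.14e-10). The KD differed from the control by 0.56 on day 0 (adjusted p = 0.00676) and by −0.74, −0.75 and −0.74 on days 2, 5 and 6 (SE 0.090 each). The day 2 difference was not called without replicate 1 (adjusted p = 0.475) or without the replicate block (adjusted p = 1). The second probe of PSMA1 was above background on no array.

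Averaged over days −2 to 6, PSMA1 was lower in the KD by −0.30 (SE 0.032, adjusted p = 3.63e-07 from limma), with −0.392, −0.244 and −0.278 in the replicates, and over days 4 to 6 by −0.62 (adjusted p = 7.53e-05). The call over all days was lost without replicate 1 (−0.265, adjusted p = 0.0911) and without the replicate block (adjusted p = 1). No other gene of the outer ring was called between the siRNAs on any single day.

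Of the 250 bases upstream of the gene starts, 4 are shown from RefSeq (mouse build GRCm38.p6), each read on the strand of its gene: PSMA1 (chr7:114276117-114276366, minus strand) and PSME3 (chr11:101315963-101316212, plus strand), which had the largest rises on day 2 among the probes that passed the test; PSMB5 (chr14:54617996-54618245, minus strand), a catalytic subunit whose promoter holds the antioxidant response element core; and PSMB9 (chr17:34187331-34187580, minus strand), which went the other way. Capitals mark the CCAAT box on either strand and the letters TGACNNNGC, the core of the element to which the NRF transcription factors bind.
PSMA1: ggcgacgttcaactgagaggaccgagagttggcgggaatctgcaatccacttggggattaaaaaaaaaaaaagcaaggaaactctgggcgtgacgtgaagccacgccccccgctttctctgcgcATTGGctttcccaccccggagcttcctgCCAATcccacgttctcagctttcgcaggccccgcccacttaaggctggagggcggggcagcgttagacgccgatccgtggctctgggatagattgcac
PSME3: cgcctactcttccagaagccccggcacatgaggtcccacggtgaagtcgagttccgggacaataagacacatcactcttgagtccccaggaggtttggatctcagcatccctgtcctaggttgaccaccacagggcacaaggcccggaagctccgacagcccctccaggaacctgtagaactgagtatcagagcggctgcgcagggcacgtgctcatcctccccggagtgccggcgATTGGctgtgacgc
PSMB5: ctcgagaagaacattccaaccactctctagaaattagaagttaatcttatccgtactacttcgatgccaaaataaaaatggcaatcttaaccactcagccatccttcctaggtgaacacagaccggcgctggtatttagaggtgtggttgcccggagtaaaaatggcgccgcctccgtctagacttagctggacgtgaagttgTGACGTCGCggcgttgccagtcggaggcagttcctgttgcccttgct
PSMB9: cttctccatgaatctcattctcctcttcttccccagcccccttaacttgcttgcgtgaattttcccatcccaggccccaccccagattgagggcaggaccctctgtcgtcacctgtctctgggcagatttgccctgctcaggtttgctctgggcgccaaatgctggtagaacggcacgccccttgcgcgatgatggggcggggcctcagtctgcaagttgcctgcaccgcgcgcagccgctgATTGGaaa
Of the 40 genes, 34 had a promoter in the table of 250 bases before to 50 after the start. The CCAAT box was in 13 of 34, against 37.4% of all 32851 promoters. TGACNNNGC was in 5 (PSMB5, PSMC6, PSMD9, PSMD12 and PSME4; 12.4% of all), GAAANNGAAA, the interferon-stimulated response element, in 4 (PSMB3, PSMD4, PSMD9 and PSME1; 3.44%), and AGGTCANAGGTCA, the direct repeat that PPARγ and RXR bind, in 0 (0.0396%). Both strands were searched and the motifs do not contain each other. Only the exact letters of the direct repeat were sought, and so few promoters hold them that 0 of 34 says nothing about binding. The paper found a looser form of this repeat at its binding sites. It mapped PPARγ and RXR binding by chromatin immunoprecipitation, which was not examined here. The motifs and the promoters shown were chosen after the expression values were seen, and a match is only a match of letters.

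**Figure D2:**
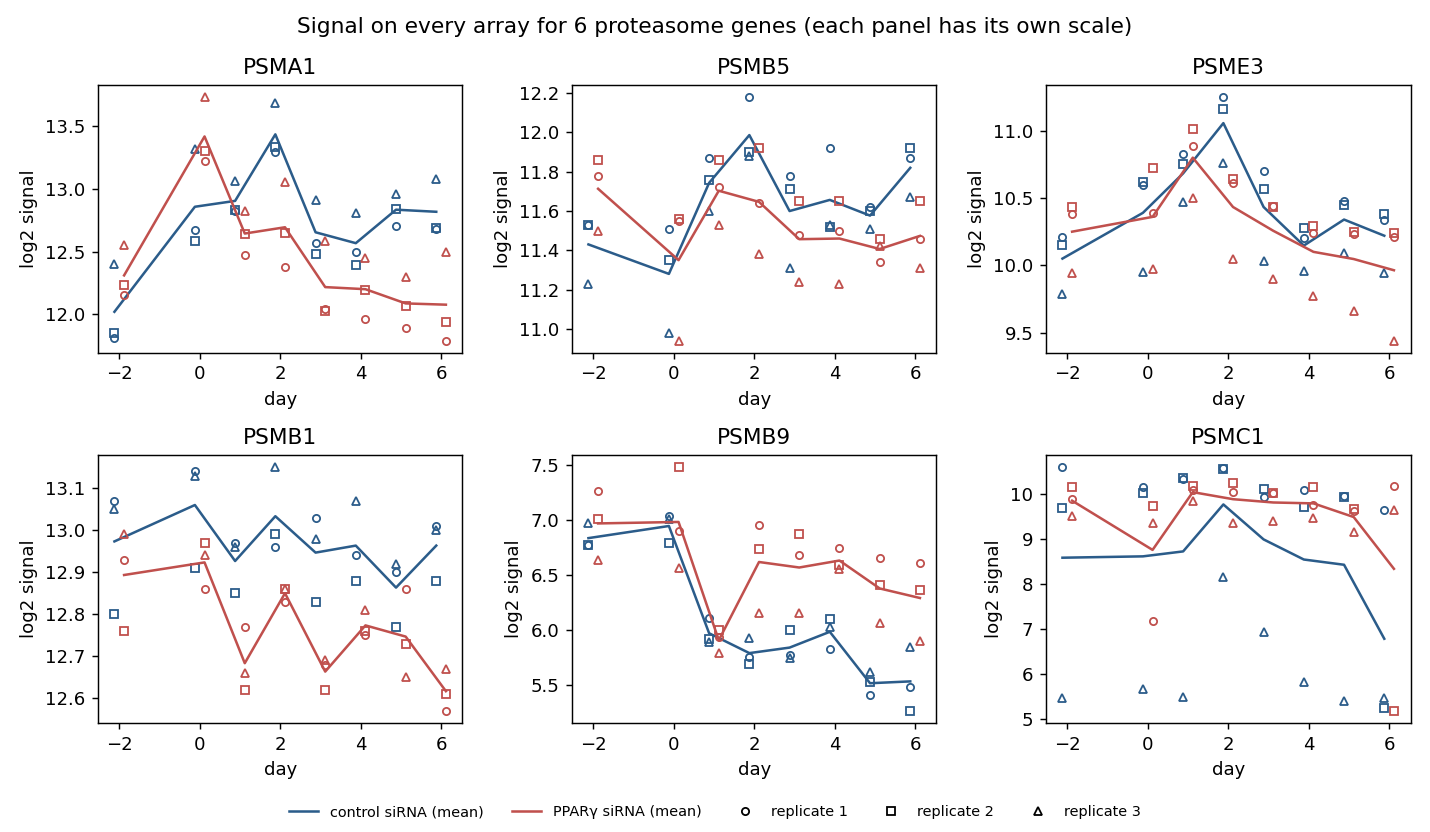
Log2 signal (vertical axis, its own scale in each panel) by day (horizontal axis) on every array for PSMA1, PSMB5, PSME3, PSMB1, PSMB9 and PSMC1. Circles, squares and triangles are replicates 1, 2 and 3, lines are means of 3, and points of the siRNAs are set slightly apart along the day axis. PSMA1 crosses between day 0 (0.56) and day 2 (−0.74), PSMB9 keeps a higher signal in the KD from day 2 on, and PSMC1 falls into separate bands.

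Of the cutting subunits, PSMB5 (β5, the chymotrypsin-like site) read 11.53, 11.53 and 11.23 on day −2 under control siRNA and 12.18, 11.90 and 11.88 on day 2. In the KD it read 11.78, 11.86 and 11.50 on day −2 and 11.64, 11.92 and 11.38 on day 2. The control arrays of day 2 lay above all those of day −2, whereas those of the KD overlapped. The change under control siRNA was 0.56 (SE 0.105), which missed the threshold (adjusted p = 0.128 from limma), and the test over all days passed it (adjusted p = 0.0477). It was still 0.39 above day −2 on day 6.

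PSMB7 (β2, the trypsin-like site) read 13.32, 13.17 and 13.29 on day −2 under control siRNA and 13.79, 13.80 and 13.78 on day 2. In the KD its arrays were lower on day 2 (12.79, 12.95 and 13.23) than on day 1 (13.44, 13.62 and 13.32) or day 3 (13.26, 13.30 and 13.27). On day 2 the siRNAs did not overlap, and they differed by −0.80 (SE 0.096, adjusted p = 1.29e-05 from limma), with −0.72 (adjusted p = 0.014) for the second probe. The first was not called without replicate 1 (adjusted p = 0.568) or 2 (0.138). Over days −2 to 6 PSMB7 was lower in the KD by −0.20 (SE 0.034, adjusted p = 0.0326). This call was lost without replicate 1, 2 or 3 (adjusted p between 0.288 and 1) and without the replicate block (adjusted p = 0.111), and the second probe, at −0.18, did not pass.

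PSMB1 (β6, a structural subunit) was not a day 2 gene. Its daily means under control siRNA lay between 12.87 and 13.06 (adjusted p of the change over days = 1), and it was lower in the KD in 23 of 24 pairs of arrays. Its siRNA difference averaged −0.20 over the days (SE 0.026, adjusted p = 7.95e-05 from limma), with −0.222, −0.123 and −0.249 in the replicates. Without replicate 1 it was −0.19 (adjusted p = 0.4) and without replicate 3 −0.169 (adjusted p = 1). PSMB3, another structural β subunit, rose by 0.58 on day 2 under control siRNA (adjusted p = 0.00722).

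In all, 4 of the 56 probes (7.14%) were called between the siRNAs over days −2 to 6, namely PSMA1, PSMB1 and PSMB7 lower and PSMB9 higher in the KD, where 13.1% of all probes were. Above background the share was 8.16% of the proteasome probes and 29.6% of all. Without replicate 1, 2 or 3 the count was 0, 2 and 2, and without the replicate block 2. The share of all probes called fell as well, to 7.4%, 7.15% and 10.7%, and to 7.19% without the replicate block. With the arrays of a siRNA and replicate as a random block, only PSMA1 passed (adjusted p = 0.0149), with PSMB1 at 0.404, PSMB7 at 1 and PSMB9 at 0.121. With 1 mean per siRNA and replicate, PSMA1, PSMB1 and PSMB7 each had an adjusted p of 1. PSMB9 and PSMC1 passed there (adjusted p = 0.00708 and 1.09e-18 from limma). In that test a probe's own spread carried no weight, so none of these outcomes is relied on. With Benjamini-Hochberg adjustment 20 were lower and 4 higher, where 15.6% and 15.3% of all probes were, and above background 38.8% and 8.16% of the proteasome probes against 27.2% and 32% of all. By gene, 30 of 37 differences were below 0, with a median of −0.073. The median over the 49 probes above background was −0.0589 and that of all 10567 such probes 0.0177. Over days 4 to 6, 2 probes (PSMA1 and PSMB9) were called, where 5.31% of all were, and without replicate 1, 2 or 3 the count was 0, 1 and 2.

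By single day, 7 calls were made, and 0, 3 and 7 without replicate 1, 2 or 3. On day 0 PSMA1 alone was called, as higher (3.03% of all probes were called), and on days 5 and 6 PSMA1 alone, as lower (3.24% and 3.88%). The other 4 were on day 2 (8.92%, and 20.5% of those above background), all lower in the KD: PSMA1, both probes of PSMB7, and PSME3. On days −2, 1, 3 and 4, where 0.861%, 2.91%, 2.76% and 2.4% of all probes were called, 0 proteasome probes were called by limma with Bonferroni adjustment. With Benjamini-Hochberg adjustment 0, 1, 4 and 2 were, and 12, 5, 10 and 9 had an unadjusted p under 0.05. The shares of all probes at these looser thresholds are not given here. The counts are therefore not read as a result about the proteasome.

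**Figure D3:**
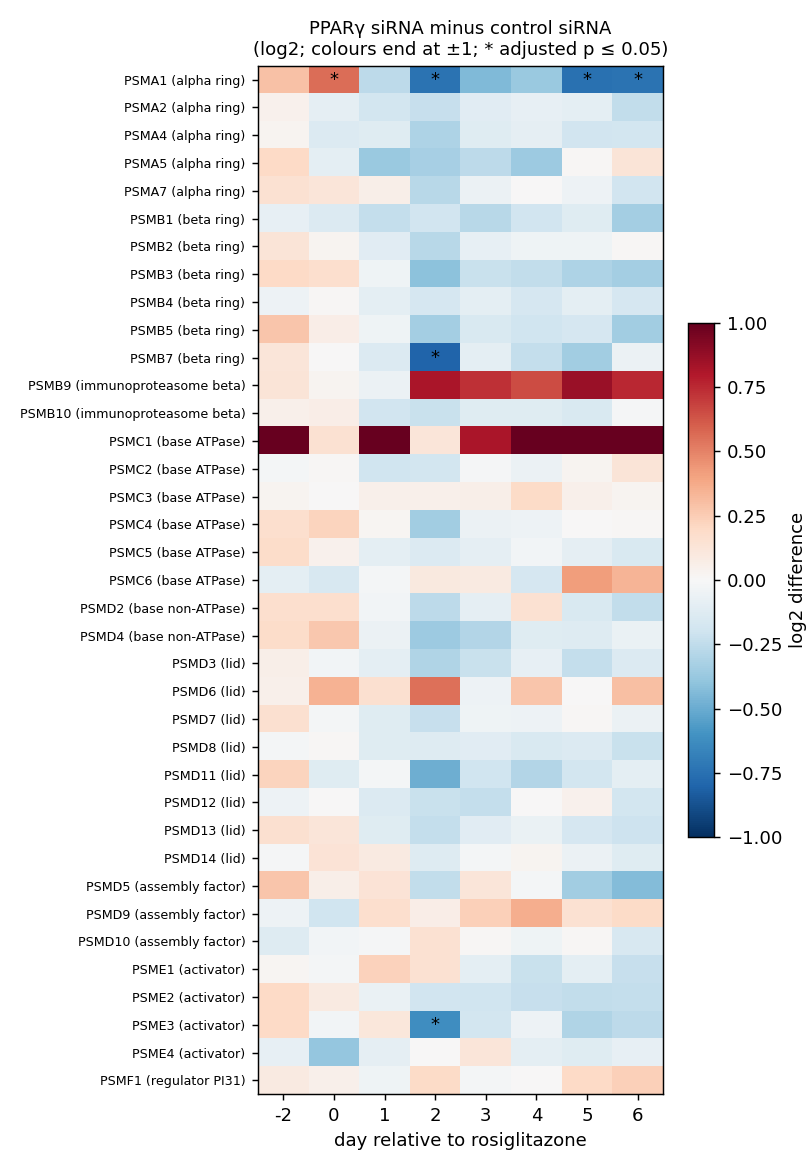
Difference in mean log2 signal, PPARγ siRNA minus control siRNA (colour, blue lower and red higher in the KD, ending at 1 in each direction), for 37 proteasome genes (rows, by place in the proteasome) on 8 days (columns). A star marks a limma call (Bonferroni) on that day: PSMA1 on days 0, 2, 5 and 6, and PSMB7 and PSME3 on day 2, whose column is blue in 28 of 37 rows.

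Of the immunosubunits, PSMB9 (β1i) was the only one called, as higher in the KD. Under control siRNA it read 6.77, 6.77 and 6.97 on day −2 and 7.04, 6.79 and 7.01 on day 0. From day 1 on it was not well above background on any control array, with 5.76, 5.69 and 5.93 on day 2 and 5.49, 5.27 and 5.85 by day 6. In the KD the values were 7.26, 7.01 and 6.64 at the start. They were 5.94, 6.00 and 5.79 on day 1 but 6.96, 6.74 and 6.16 a day later, with 6.61, 6.37 and 5.90 at the end. Both siRNAs were low on day 1, and from day 2 on the KD arrays lay above every control array of the same day. It exceeded background on 6 of the 24 control and 13 of the 24 KD arrays. Of these 19 arrays, 17 were in replicates 1 and 2 and 2 in replicate 3. Averaged over the days, its signal differed between siRNAs by 0.695, 0.673 and 0.098 in replicates 1, 2 and 3, sizes that background limits.

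Under control siRNA PSMB9 was at least 1.16-fold lower on day 5 than on day −2 and at least 1.17-fold lower on day 6 (adjusted p = 0.000528 and 0.000698 from limma). These bounds set the mean of day −2 against the higher of the probe's own signal and the lowest signal above background on each dim array. The siRNA difference of PSMB9 over days −2 to 6 passed the test as higher in the KD (adjusted p = 0.000171), but with so few arrays above background in either siRNA no fold is given. On days 3 and 4 the difference did not pass, with an adjusted p of 1 on each day. Only 2 KD arrays were above background on each of these days, so no fold is given for them. Days 5 and 6 allowed no bound. Without replicate 1 and without replicate 2 the adjusted p over all days was 1. Over days 4 to 6 the mean was 6.43 in the KD, with 5 of 9 arrays above background, and 5.68 under control siRNA with none (adjusted p = 0.0208), which allows no fold. That the difference was larger after day −2 was not shown, since PSMB9 was not called in the test of the siRNA effect between days.

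PSMB8 (β5i) was above background on no array. PSMB10 (β2i) did not follow PSMB9. It read 11.01, 10.80 and 11.28 on day −2 and 10.36, 10.33 and 10.53 on day 0 under control siRNA, and 11.08, 11.06 and 11.09 and then 10.41, 10.51 and 10.52 in the KD. Every array was lower on day 0 than every array of day −2 of its siRNA. It fell by 0.62 under control siRNA (adjusted p = 0.000521 from limma) and by 0.60 in the KD (adjusted p = 0.00134), and on day 1 was back at means of 11.09 and 10.90. Its difference over days −2 to 6 was −0.09 (adjusted p = 1).

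Genes of MHC class I antigen processing and of the interferon response moved beside PSMB9, and their part in its difference was not tested. Of 8 MHC class I pathway genes above background, 4 were higher and 0 lower in the KD over days −2 to 6 (median 0.226), and 3 fell and 0 rose on day 2 under control siRNA (median −0.488). The largest differences there were those of H2-D1, a class I heavy chain (0.39, SE 0.025, adjusted p = 1.59e-13 from limma), TAP2, a subunit of the peptide transporter (0.28, adjusted p = 2.27e-05), and H2-K1, another heavy chain (0.26, adjusted p = 1). Of 11 interferon response genes above background, 9 were higher and 0 lower in the KD (median 0.505), and 8 fell and 0 rose on day 2 under control siRNA (median −1.476). The interferon-induced GTPase gene IIGP2 differed by 1.12 (adjusted p = 2.42e-10), BST2, which tethers budding virus, by 1.07 (adjusted p = 4.94e-17) and the GTPase gene IRGM by 0.78 (adjusted p = 2.14e-11). IIGP2 was above background on 13 control and 18 KD arrays and IRGM on 17 and 22, so that the sizes of these 2 differences are limited by background. STAT2 (12 and 18), IGTP (9 and 15) and IFIT3 (6 and 9) were also often below it. The median of 0.505 is the value of STAT2 and that of −1.476 the value of IGTP, so that both medians are limited by background too. Another 12 interferon genes were above background on no array. Of all probes above background, 14.5% were higher in the KD over all days and 16.2% fell on day 2 under control siRNA. The macrophage markers LYZS and CD14 moved in the same directions as these lists on day 2, and LYZS was also higher in the KD over all days (0.32, adjusted p = 0.0134).

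The 19S base holds the ring of ATPases that threads substrates into the core. Under control siRNA PSMC4 rose by 0.54 on day 2 (SE 0.081, adjusted p = 0.00196 from limma), and PSMC5 by 0.52 and 0.77 on its probes (adjusted p = 0.000824 and 4.96e-05). In the KD the changes of these probes were 0.02, 0.20 and 0.28, with an adjusted p of 1 each. Of the other base subunits, the ubiquitin receptor PSMD4 rose by 0.51 on day 2 (adjusted p = 0.00244), with −0.03 in the KD, and the scaffold PSMD2 changed by 0.26 (adjusted p = 1), with −0.17 in the KD.

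PSMC1, the ATPase Rpt2, had the largest fitted difference of all, 0.94 higher in the KD, but did not pass (SE 0.401, adjusted p = 1 from limma). Its difference was −0.564, −0.033 and 3.424 in replicates 1, 2 and 3. The signal fell into separate bands, with 11 arrays at 5.18 to 8.16 and 37 at 9.16 to 10.59, a boundary drawn after seeing the values. All 8 control arrays of replicate 3 were in the lower band, beside 3 others. Without replicate 3 the difference was −0.295. Its largest range within a siRNA and day was 5.13, and of all 24613 probes only 14 had a range above 4. The probe was read on 12 to 51 beads.

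The lid removes ubiquitin chains. Of its 8 genes above background, 8 were above day −2 on day 2 under control siRNA (median 0.364), among them PSMD7, the partner of the deubiquitinase PSMD14, which rose by 0.50 (adjusted p = 0.00496 from limma). PSMD13 rose by 0.54 on one probe (adjusted p = 0.00693), and its brighter probe, at 0.39, did not pass. PSMD14 itself changed by 0.22 (SE 0.121, adjusted p = 1), and by 0.10 in the KD. PSMD6 read 0.20 higher in the KD over all days and the dimmer PSMC4 probe 0.13 higher, without passing, and both are probes that were hardly read in replicate 3.

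The caps other than 19S went separate ways. PSME3 (PA28γ, a nuclear cap that does not need ubiquitin) read 10.21, 10.15 and 9.79 on day −2 under control siRNA, then 10.83, 10.75 and 10.47 and, on day 2, 11.25, 11.16 and 10.76. In the KD the same days gave 10.38, 10.43 and 9.94, then 10.89, 11.01 and 10.50, and on day 2 10.61, 10.64 and 10.05. In both siRNAs day 1 lay above day −2. On day 2 every control array was higher than on day 1 and every KD array lower, and the siRNAs did not overlap. PSME3 rose by 1.01 on day 2 under control siRNA, 2.01-fold (SE 0.085, adjusted p = 8.53e-10 from limma), and by 0.64 and 0.55 on day 1 under control siRNA and in the KD (adjusted p = 0.000153 and 0.00328). The difference between siRNAs on day 2 was −0.62 (SE 0.085, adjusted p = 0.000254), and over all days −0.14 (adjusted p = 0.95). The day 2 difference did not pass without replicate 1, 2 or 3 (adjusted p = 0.905, 0.128 and 0.145) or without the replicate block (adjusted p = 1).

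PSME1 and PSME2, the PA28α and PA28β subunits that pair with the immunoproteasome, did not crest on day 2. PSME1 fell by 0.61 from day −2 to day 1 under control siRNA (adjusted p = 0.000447 from limma), was at −0.37 on day 2 (adjusted p = 1) and at 0.17 on day 6. PSME2 changed by 0.02 on day 2 under control siRNA, and in the KD fell by 0.47 on day 1 (adjusted p = 0.00629) and by 0.43 on day 6 (adjusted p = 0.0372). Its probe may also read the near-identical copy Psme2b. PSME4 (PA200) changed by 0.21 on day 2 under control siRNA and by 0.29 in the KD, with an adjusted p of 1 in both.

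PSMF1 (PI31, a proteasome regulator) was among the 5 genes below day −2 on day 2 under control siRNA, at −0.24, and was at −0.37 on day 6 with −0.39, −0.36 and −0.36 in the replicates (adjusted p = 0.4 from limma). Of the chaperones that build the 19S base, PSMD5 changed by 0.56 on day 2 under control siRNA and 0.03 in the KD, PSMD9 by 0.06 and 0.17, and PSMD10 (gankyrin) by −0.32 and −0.04, each with an adjusted p of 1. The chaperones of the 20S core were on the array under older names, DSCR2 (Psmg1), TNFSF5IP1 (Psmg2) and a RIKEN clone name (Psmg3), and were looked up after the gene names of the array were seen. All 3 rose on day 2 under control siRNA, by 0.76, 0.67 and 0.87 (adjusted p = 3.73e-06, 0.000563 and 0.000173 from limma). Of all probes, 6.93% rose by the same test, and the share among probes above background, given earlier, was larger. Their median change in the KD was 0.223.

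On day 6 under control siRNA, the highest changes from day −2 were those of PSMA1 (0.80), PSMB5 (0.39), PSMD11 (0.38) and PSMA5 (0.31), and the 4 with the lowest fitted values were PSMC1, PSMB9, the dimmer PSMD9 probe and PSMF1. PSMF1 was at −0.37 and PSMC1, in its separate bands, at −1.80. PSMB9 and that PSMD9 probe were not well above background on any control array of day 6, which leaves the bound of 1.17-fold for PSMB9 and none for PSMD9. PSMD11 and PSMA5 are probes that were hardly read in replicate 3. Of the 8, PSMA1 and PSMB9 passed the test, 2 of the 56 probes (3.57%), where 6.24% of all probes did.

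The lists below of other genes around the proteasome also had medians above day −2 on day 2 under control siRNA. Of 17 factors that bind or control the proteasome and were above background, 12 were above day −2 on day 2 under control siRNA (median 0.324, −0.007 in the KD). Of these factors 5 rose, where 15.8% of all probes above background did. Over all days 3 were lower and 0 higher in the KD, where 29.6% of all probes above background were called in either direction. These 3 were UBQLN1, a shuttle for ubiquitin-tagged proteins (−0.23, adjusted p = 5.05e-07 from limma), POMP, which matures the core (−0.22, adjusted p = 0.000122), and ADRM1, the ubiquitin receptor Rpn13 (−0.18, adjusted p = 0.00853). The transcription factors of proteasome genes, NFE2L1 and NFE2L2, were at −0.11 and −0.21 on day 2 under control siRNA, with an adjusted p of 1. On day 6 NFE2L1 had risen by 0.47 (adjusted p = 0.00815) and NFE2L2 was at 0.02 (adjusted p = 1).

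Of 15 genes of ubiquitin and its activation above background, 3 rose on day 2 under control siRNA (median 0.185, 0.146 in the KD), where 15.8% of all probes above background did. HIP2, a ubiquitin-conjugating enzyme, was lower in the KD over all days (−0.29, adjusted p = 3.41e-07 from limma), UBE2S was higher (0.28, adjusted p = 0.011), and UBE2C had the largest difference (0.42) but did not pass. UBE2N (0.26, adjusted p = 2.18e-05) was also called, and is named beyond the rule on size.

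Of 9 subunits of the COP9 signalosome, a complex related to the lid, 9 were above day −2 on day 2 under control siRNA (median 0.242, −0.011 in the KD). Of them 2 rose, where 15.8% of all probes above background did. None was called between siRNAs over all days, with the largest differences in COPS5 (−0.17), COPS6 (−0.14) and COPS7B (0.14). Of 7 subunits of the CCT chaperonin, which folds actin and tubulin, 7 were above day −2 on day 2 under control siRNA (median 0.45, 0.089 in the KD). Here 2 rose, beside the same 15.8%. CCT3 rose by 1.30 on day 2 under control siRNA (adjusted p = 4.67e-13 from limma), and differed by −0.17 between the siRNAs over all days (adjusted p = 0.0737), beside 0.18 for CCT5 and −0.10 for TCP1. The CCT median on day 2 lay above that of the proteasome genes, a difference that was not tested.

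**Figure D4:**
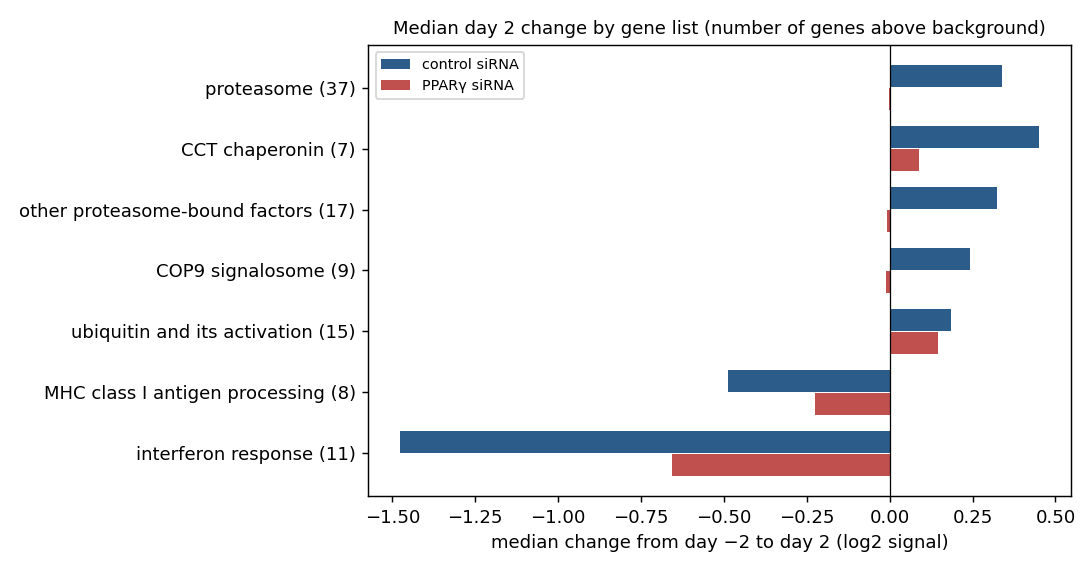
Median change in log2 signal from day −2 to day 2 (horizontal axis) over the genes above background of each list (vertical axis, number of genes in parentheses), with a bar from 0 for control siRNA and for PPARγ siRNA. The proteasome bar reaches 0.34 under control siRNA and −0.002 in the KD, and the interferon response bars −1.476 and −0.657. The bars are descriptions with no test, and the size of the interferon response bar under control siRNA is limited by background.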

How the data were processed

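The authors summarised each probe's mean bead intensity in BeadStudio 3.3.7 and deposited it without normalization, with a detection fraction (1 minus the detection p-value) and the number of beads. Their rank-invariant normalization and batch correction are not in these values. Array medians lay between 105.1 and 141.7. Precision is limited by how far a probe stands above background and by the array number.

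From the deposited intensities, limma 3.58.1 in R 4.3.3 corrected background (normexp by detection p, offset 16). Arrays were scaled on rank-invariant probes (factors 0.73 to 1.58) and taken to log2. One limma model of all 48 arrays had 1 mean for every siRNA on every day, with replicate as a block, and a second covered the 18 arrays of days 4 to 6. Adjusted p-values are Bonferroni over 24613 probes unless Benjamini-Hochberg is named. The replicate numbers were taken to pair the samples. In all 24 pairs the arrays deviated together (correlation 0.544 to 0.914), but only 31 of 48 arrays correlated best with their own number. Replicate 3 stood apart, and its separate level enters these correlations. They therefore do not show that the numbers pair replicates 1 and 2. The model recovered 199 of 200 changed probes in simulated data. The planted differences were larger than those called here over days −2 to 6, and the noise was independent between arrays. The simulation therefore does not show how the model handles smaller differences or arrays of a shared series.

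The genes named were the cutting subunits, caps, PI31, chaperones, PSMD2, PSMD4 and PSMD14, the 4 probes above background with the largest difference in each direction and with the largest rise and fall to day 6, and the 3 largest differences of each list. Genes called on day 2, NFE2L1 and NFE2L2 were added after their values were seen. The proteasome probes were found by name alone, but the proteasome and the lists were chosen as subjects with earlier results of these data known. A gene with several probes is given by its brightest. Figures were drawn with matplotlib 3.10.9.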

Additional observations from a re-analysis of the deposited data

Results flagged for a closer look

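The siRNA effect differed between days for 2 proteasome genes in the limma test of 7 later days against day −2. For PSMA1 (adjusted p = 4.57e-09) the KD was above the control on days −2 and 0 in 3 of 3 replicates and below it in 3 of 3 from day 1 on. For PSME3 (adjusted p = 0.0306) the difference was widest on day 2, at −0.62, and the call was lost when any 1 of the replicates was left out. What lies behind them was not tested.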

How the results depend on the processing

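Counts are given in the order siRNA over days −2 to 6, siRNA over days 4 to 6, single days summed, change over days under control siRNA, the same in the KD, and siRNA effect between days, which were 4, 2, 7, 23, 8 and 2 of 56 probes. Quantile normalization gave 3, 1, 7, 22, 12 and 4, no background correction 3, 2, 7, 20, 15 and 1, an offset of 50 4, 3, 7, 22, 9 and 1, leaving out dim probes 5, 2, 8, 23, 15 and 4, and Benjamini-Hochberg adjustment 24, 19, 52, 38, 34 and 16. Without the replicate block, that is without the pairing, the counts were 2, 0, 1, 9, 2 and 0. Leaving out each replicate in turn gave 0 to 2, 0 to 2, 0 to 7, 3 to 11, 1 to 6 and 1 to 3, lowest without replicate 1 for the siRNA counts. Of the 4 siRNA calls, 3 remained with quantile normalization and with no background correction, 2 without the block, and 0, 2 and 2 without replicates 1, 2 and 3. Of all probes, 13.1% were called in the main setting. The share was 7.19% without the block, and 7.4%, 7.15% and 10.7% without replicates 1, 2 and 3. With quantile normalization the share of all called probes that were lower in the KD was 44.4%, with no replicate block 58.5% and without replicate 2 64.6%, against 51.4%.

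The other settings were chosen after seeing the data. A random block for the arrays of a siRNA and replicate (correlation 0.192, and 0.118 for days 4 to 6) gave 1, 2, 6, 25, 13 and 3 calls, with 60.4% of all called probes lower. Averaging the 8 days and testing the 3 pairs was also tried, and 2 probes passed over days −2 to 6, PSMB9 (adjusted p = 0.00708) and PSMC1 (adjusted p = 1.09e-18). The prior degrees of freedom were infinite there, so that the spread of a probe's own 3 pairs carried no weight. Neither the PSMB9 nor the PSMC1 value is therefore read as a call. PSMA1, PSMB1 and PSMB7 did not pass in that same test. Averaging days 4 to 6, 2 probes passed, PSMA1 (adjusted p = 0.00486 from limma) and PSMB9 (adjusted p = 0.00146). The prior degrees of freedom were 30.4 there against 2 residual ones, so that a probe's own spread carried little weight. These 2 values are not read as calls either.

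The rise to day 2 under control siRNA (9 probes) and the siRNA effect of day 2 below that of day −2 (3) were followed through the same settings, also after seeing the data. They came to 9 and 4 with quantile normalization, 9 and 3 without background correction, 9 and 4 with an offset of 50, 13 and 5 with dim probes left out, 22 and 22 with Benjamini-Hochberg adjustment, 2 and 1 without the replicate block, 12 and 3 with the random block, and 2 to 3 and 0 to 3 with each replicate left out.

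The median difference of the proteasome probes stayed between −0.113 and −0.0336, that of Pparg between −2.38 and −2.09, and the day 2 medians between 0.274 and 0.368 under control siRNA (0.28 with quantile normalization) and between −0.249 and −0.157 between siRNAs. Some siRNA differences over days −2 to 6 that had not passed (adjusted p = 1) changed sign. Quantile normalization turned PSMC4 (0.0596), PSMC5 (0.00577), PSMD7 (0.0143), PSMD14 (0.036) and PSME1 (0.0102), and no background correction PSMC4 (0.0301), PSMD14 (0.0223) and PSMD10 (0.00779). Leaving out a replicate took PSMA5 from −0.332 to 0.0777, PSMC4 from −0.0692 to 0.0375, PSMD5 from −0.0881 to 0.00245, PSMD7 from −0.0873 to 0.00275, PSMD10 from −0.0557 to 0.00297, PSMD13 from −0.192 to 0.00714, PSMD14 from −0.103 to 0.0739, PSME1 from −0.0625 to 0.00441 and PSMC1 from −0.295 to 1.69. The BeadChip as a block was not run, because the files give no BeadChip. PSMB8, PSMA3 and PSMA6 were above background on no array.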
